A study of Homo sapiens with 12 samples.

Results

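The EIF3G/E/F band is the gel band, from an anti-EIF3B immunoprecipitation of UV-crosslinked Jurkat cells, in which mass spectrometry found the eIF3 subunits EIF3G, EIF3E and EIF3F. It gave 4 of the 20 PAR-CLIP libraries of the study, 2 from activated and 2 from non-activated cells. All genes with a called cluster in any of these 4 libraries were taken, 384 of the 6036 genes with a cluster in any band. Jurkat Clone E6-1 is a human T cell leukaemia line. Activated cells were treated with PMA and ionomycin for 5 hr, and non-activated cells were left without them. Both groups had taken up 50 μM 4-thiouridine from 7 hr before that treatment, and both were crosslinked at 365 nm and 0.2 J/cm2. The question was which RNAs touch eIF3 when T cells are activated. A line that is 1 leukaemic clone, driven by chemicals that bypass the receptor, limits both groups as a model of T cells.

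In PAR-CLIP, 4-thiouridine that is crosslinked to protein is read as C instead of T, so that the T-to-C fraction marks reads from bound RNA. eIF3 is the large initiation factor that holds the small ribosomal subunit, the other factors and the mRNA together. EIF3G is an RNA-binding subunit at the mRNA entry side of the small subunit, and EIF3E and EIF3F belong to the structural core of the complex. A gene is listed in a library only where at least 1 cluster passed the caller's minimum of 7 reads, so a gene that is not listed can still have reads there.

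Among genes listed in all 4 libraries the largest called rise was at a miRNA locus, so the mature miRNAs of the 5 miRNA loci that passed the test, and of MIRLET7B, the 1 locus listed in both non-activated libraries only, are shown first, from RefSeq (GRCh38.p14), 5′ to 3′, with the seed (bases 2 to 8) in capitals. The deposited counts are per locus, so both arms are given where RefSeq holds both.
hsa-miR-142-5p: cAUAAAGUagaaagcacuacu
hsa-miR-142-3p: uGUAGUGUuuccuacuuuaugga
hsa-miR-21-5p: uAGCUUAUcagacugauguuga
hsa-miR-181a-5p: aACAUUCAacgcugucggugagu
hsa-miR-181a-2-3p: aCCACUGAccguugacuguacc
hsa-miR-17-5p: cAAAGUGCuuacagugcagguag
hsa-miR-17-3p: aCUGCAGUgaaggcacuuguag
hsa-miR-93-5p: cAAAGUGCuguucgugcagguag
hsa-miR-93-3p: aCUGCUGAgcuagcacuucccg
hsa-let-7b-5p: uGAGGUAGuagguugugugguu
hsa-let-7b-3p: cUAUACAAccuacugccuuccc

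The 5p arms of MIR17 and MIR93 share the seed AAAGUGC, although MIR17 lies on chromosome 13 and MIR93 on chromosome 7. The 3p arm of MIR142 lies at chr17:58331245-58331267 (GRCh38.p14, minus strand), MIR21 on the same chromosome, MIR181A2 on chromosome 9 and MIRLET7B on chromosome 22. Of the 23 bases of hsa-miR-142-3p 11 are U, the base that 4-thiouridine replaces, against 4 of the 21 bases of hsa-miR-142-5p.

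The activated libraries held 133837 and 130768 uniquely aligned reads, and the non-activated libraries 102477 and 91892. These were 2.28% and 2.28% of the sequenced reads in activated cells, against 1.11% and 1.07% in non-activated cells, and the reads sequenced numbered 5863482 and 5730254 in activated cells, against 9217126 and 8586349 in non-activated cells. The part of this gap in the results was not tested. Reads count captured RNA, so that more RNA in the cell and more binding per RNA cannot be told apart from them. In a bulk sample fewer cells and less RNA per cell cannot be told apart either. Reads per RNA class in the 2 non-activated libraries differed by less than the sampling noise (chi-square test, 0.911 per degree of freedom, p = 0.611). The 2 activated libraries differed by more (6.70 per degree of freedom). Over the 5 mRNA regions alone the activated pair was also within sampling noise (1.18, chi-square p = 0.317). Over genes listed in both libraries the values were 0.844 for the non-activated and 1.98 for the activated pair. Over genes listed in either, with unlisted genes as 0, they were 2.96 and 5.88. These checks thus differ with the features used. From the RNA class values the non-activated pair was counted as 1 sample wherever a mean is given, and each library's own value is printed. In the tests both libraries entered as replicates, which can make p-values too small. The number of calls with the pair counted as 1 is given for each test. Most single genes and classes have only the p-value with both libraries as replicates. Nothing in the deposited labels says that the replicates were separate cultures, while the study's methods call them biological replicates. If they are not, the p-values measure technical spread.

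Activation changed which parts of mRNA the band held. Reads from 3′-UTRs made up 9.42% and 9.57% of uniquely aligned reads in the activated libraries, against 5.15% and 5.21% in the non-activated libraries. On the log2 scale this was a rise of 0.87 ± 0.04 (SE, edgeR quasi-likelihood test with Benjamini-Hochberg adjustment over 30 RNA classes, adjusted p = 3.5e-28). Reads from 5′-UTRs rose by 0.74 ± 0.04 to 10.9% and 10.9%, against 6.61% and 6.42% (edgeR, adjusted p = 4.29e-27). Coding sequence moved the other way. It held 14.6% and 14.7% of reads in activated cells and 17.3% and 17.3% in non-activated cells, a fall of 0.24 ± 0.03 in log2 (edgeR, adjusted p = 3.5e-13). That fall depends on the scaling, since the difference was 0.06 under TMM and 0.20 with no scaling to depth. Start codon reads, at 0.894% and 0.969% against 0.799% and 0.806%, did not pass the test in the main comparison (edgeR, adjusted p = 0.0523), nor did stop codon reads (edgeR, adjusted p = 0.154). All mRNA regions together held 36.3% ± 0.199 (SD, n = 2) of the reads in activated cells and 30.1% in non-activated cells.

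**Figure D1:**
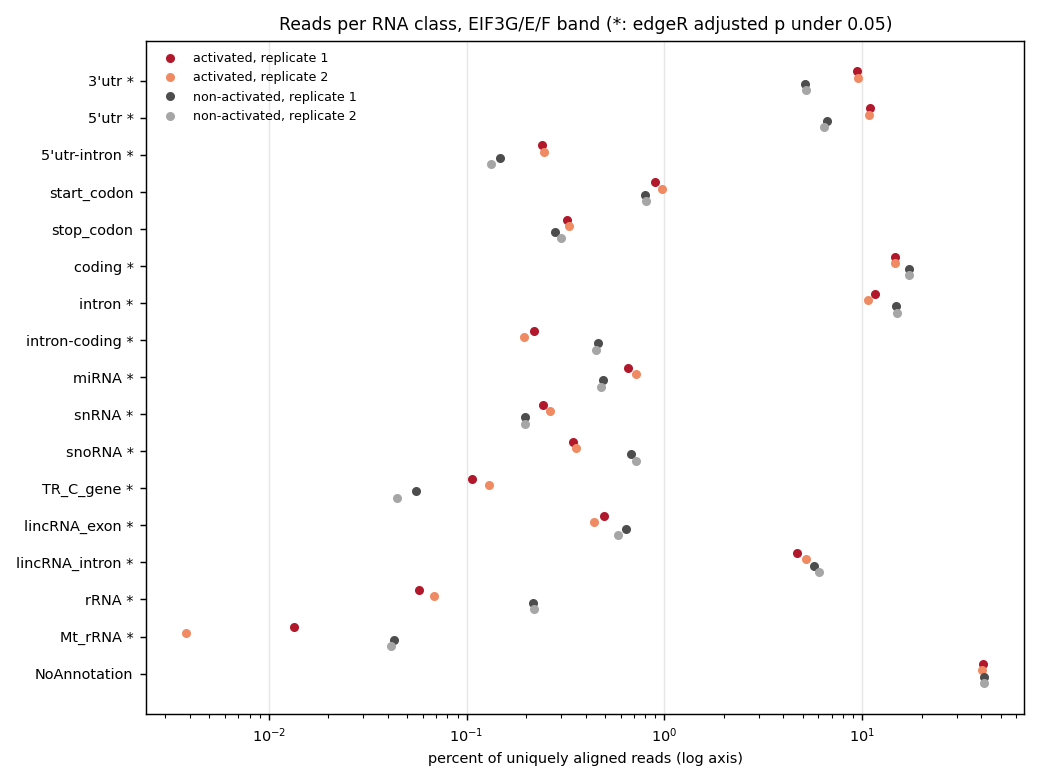
Percent of uniquely aligned reads per RNA class (horizontal log axis) in each of the 4 libraries. Points are single libraries, and classes with an asterisk passed the edgeR test. The 3′-UTR and 5′-UTR points of activated cells (9.42% to 10.9%) lie to the right of those of non-activated cells (5.15% to 6.61%), and the snoRNA and rRNA points lie to the left.

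Of the 30 RNA classes tested, 19 (63.3%) passed, 7 of them higher and 12 lower in activated cells. The split depends on scaling. It was 13 higher and 6 lower under TMM, 15 and 7 with no scaling to depth, and 9 and 6 with DESeq2. TMM moved the median class by 0.31 and DESeq2 by 0.14 on the log2 scale. With the non-activated pair counted as 1 sample, 17 classes passed, all of them among the 19.

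The non-coding classes went in both directions. miRNA reads numbered 881 and 942 in the activated libraries and 499 and 440 in the non-activated libraries, a rise of 0.51 ± 0.10 in log2 relative to depth (edgeR, adjusted p = 1.41e-05). Reads on T cell receptor constant genes numbered 143 and 169, against 57 and 41, a rise of 1.23 ± 0.17 (edgeR, adjusted p = 2.91e-09). snRNA, the RNA of the spliceosome, rose by 0.37 ± 0.11 (edgeR, adjusted p = 0.00193), a call that did not pass with the non-activated pair counted as 1 (adjusted p = 0.0659). snoRNA, which guides rRNA modification and processing, numbered 461 and 465 in activated cells and 697 and 658 in non-activated cells. It fell by 1.00 ± 0.10 in log2 (edgeR, adjusted p = 3.5e-13). rRNA reads fell by 1.79 ± 0.13 (edgeR, adjusted p = 3.71e-19), with 77 and 90 reads against 223 and 202. Mitochondrial rRNA, with only 18 and 5 reads against 44 and 38, fell by 2.26 ± 0.48 (edgeR, adjusted p = 3.93e-05). Intron reads held 11.6% and 10.8% of the activated and 14.8% and 15.0% of the non-activated libraries, a fall of 0.42 ± 0.03 (edgeR, adjusted p = 3.51e-20). Without scaling to depth the intron difference was 0.03. The rRNA, snoRNA, miRNA, 5′-UTR and 3′-UTR differences kept their direction and passed under every scaling run.

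The T-to-C fraction of the reads changed with activation as well. Of 21 classes with at least 100 reads in each library, 11 (52.4%) passed a limma test, 8 higher and 3 lower in activated cells. The deposited fractions are rounded to 2 decimals, and some pairs are equal at that precision, such as miRNA in non-activated cells. The SE and p-values therefore hold rounding as well as spread between libraries. For miRNA the fraction was 0.63 and 0.65 in activated cells and 0.37 and 0.37 in non-activated cells, the largest difference among the classes tested (0.27 ± 0.009, SE, limma, adjusted p = 0.00293). For snoRNA it was 0.79 and 0.73, against 0.58 and 0.58 (limma, adjusted p = 0.019). So snoRNA had fewer reads but a higher converted share, while miRNA had more of both. 3′-UTR reads were at 0.84 and 0.85 against 0.80 and 0.79, and 5′-UTR reads at 0.76 and 0.77 against 0.71 and 0.71 (limma, adjusted p = 0.019 and 0.0127). Coding reads were at 0.79 and 0.79 against 0.78 and 0.78 and did not pass (limma, adjusted p = 0.118). Retained introns were at 0.72 and 0.75 against 0.60 and 0.63, and reads across 5′-UTR and intron at 0.83 and 0.83 against 0.74 and 0.72 (limma, adjusted p = 0.0203 and 0.0117). The classes of introns and of lincRNA introns fell. Introns were at 0.35 and 0.37 against 0.51 and 0.50, and lincRNA introns at 0.10 and 0.09 against 0.30 and 0.27 (limma, adjusted p = 0.00809 each). Reads outside any annotation, about 40% of each library, were at 0.19 and 0.18 against 0.24 and 0.25.

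**Figure D2:**
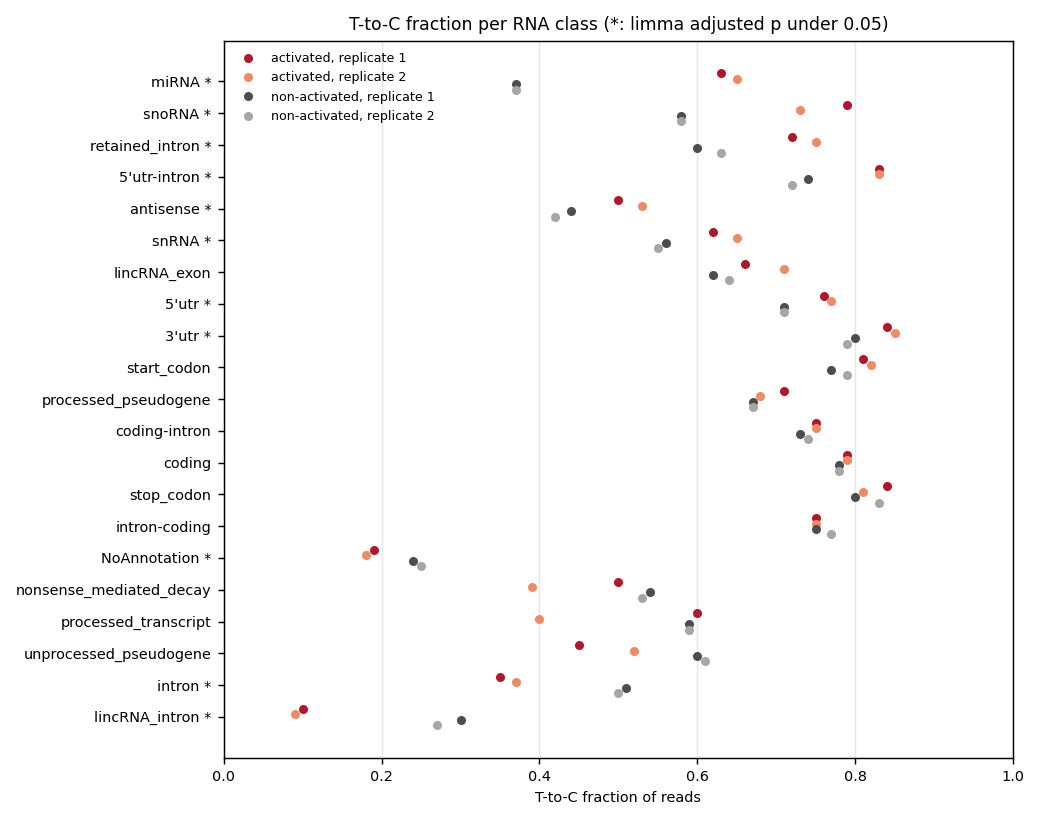
T-to-C fraction of reads (horizontal axis, 0 to 1) per RNA class in each of the 4 libraries, ordered by the difference between states. Asterisks mark classes that passed the limma test. miRNA (0.63 and 0.65 against 0.37 and 0.37) stands at the top and lincRNA introns (0.10 and 0.09 against 0.30 and 0.27) at the bottom.

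The T cell receptor constant genes had the widest gap of all classes with at least 20 reads in each library. Their fraction was 0.78 and 0.83 in activated cells and 0.25 and 0.34 in non-activated cells. With 57 and 41 reads in the non-activated libraries they fell under the minimum of the main test, and among 27 classes with at least 20 reads the difference was 0.51 ± 0.04 (SE, limma, adjusted p = 0.0119). The T-to-C calls are less firm than the read calls. Leaving out either non-activated library, or counting the pair as 1 sample, left 1 class past the threshold, which was reads across the 5′-UTR and intron boundary in the last of these. The miRNA difference then had an adjusted p of 0.0759.

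Sites in 3′-UTRs numbered 37 of 363 and 38 of 354 in the activated libraries, or 10.2% (95% Wilson interval 7.49 to 13.7) and 10.7% (7.92 to 14.4). The non-activated libraries had 0 of 135 and 0 of 110, with upper Wilson limits of 2.77% and 3.37%. These libraries nonetheless held 5281 and 4783 reads in 3′-UTRs, none of which lay in a listed 3′-UTR site. Intervals cover counting error only.

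The 3′-UTR sites of activated cells lay in 35 genes, 20 of them in both libraries. DUSP2, a phosphatase that switches off MAP kinases, had 4 and 3 such sites, SLC7A5, a large neutral amino acid transporter, 4 and 3, and KMT2D, a histone methyltransferase, 3 and 4. Of the 20 genes 4 were listed in a non-activated library: CDK6, H1FX, HMGB2 and STMN1. Of all 152 genes listed in both activated libraries, 100 were listed in no non-activated library.

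Sites in 5′-UTRs made up 41.6% and 46.3% of all sites in activated cells, against 23.7% and 30.9% in non-activated cells. Coding exons held 17.9% and 18.1%, against 11.9% and 8.18%. Sites counted under no mRNA region and not under introns held 19.6% and 17.5%, against 52.6% and 50.9%. These are mostly non-coding but include sites across a boundary, such as those of CLIC1 between 5′-UTR and intron. Among mRNA sites alone 5′-UTR sites made up 53.7% and 57.1% in activated cells, against 57.1% and 65.4% in non-activated cells, so that the states met. The order of the means, 55.4% and 61.3%, turned round because the denominator then leaves out introns and the sites counted under no region. With 2 libraries a state an exact permutation test could not reach the threshold of 0.05, and no test was made of these shares.

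**Figure D3:**
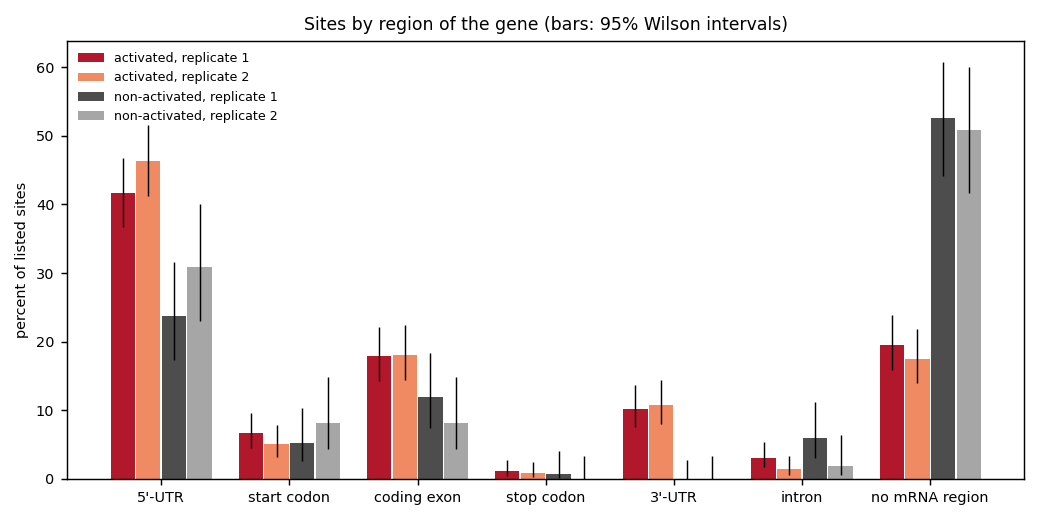
Percent of listed sites in each region of the gene, per library, with 95% Wilson intervals as error bars. The 3′-UTR bars stand at 10.2% and 10.7% in activated cells and at 0 in both non-activated libraries. Sites counted under no mRNA region and not under introns stand at 19.6% and 17.5% against 52.6% and 50.9%.

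The 384 genes were spread unevenly over the libraries. The activated libraries listed 246 and 237 genes and the non-activated libraries 93 and 76. Of the 384 genes 100 (26%) were listed in both activated and no non-activated library, 15 (3.91%) in both non-activated and no activated library, and 24 (6.25%) in all 4. A further 201 genes were listed in 1 library only. Most genes rested on a single site, 79.3% and 77.2% in activated cells, against 86.0% and 85.5% in non-activated cells.

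The cluster reads of 97 genes, each reaching 20 reads in some library, were tested, and a gene without a listed cluster entered as 0. By edgeR 35 genes (36.1%) passed, 30 (30.9%) higher and 5 (5.15%) lower in activated cells. Of these 35 genes 27 were listed in both activated libraries and no non-activated one, and 4 the other way round, so that for them the call restates the listing. Only the remaining 4 were listed in all libraries. With the non-activated pair counted as 1 sample 44 genes passed, 30 of them among the 35. Leaving out either activated library left 2 calls, 1 of them among the 35.

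MIR142, a locus of a blood-cell miRNA, was the called gene with the lowest p. It had 148 and 177 reads in activated cells, against 18 and 16 in non-activated cells, and the states did not overlap. The difference was 2.81 in log2 (edgeR, adjusted p = 0.0166). DYRK1A, a kinase gene whose cluster was annotated as a processed transcript at a single site in every library, had 157 and 131 reads against 33 and 32, a log2 difference of 1.70 (edgeR, adjusted p = 0.0184). H1FX, a linker histone gene, had 65 and 57 against 11 and 12, a log2 difference of 1.94 (edgeR, adjusted p = 0.02). All 3 kept their direction under every alternative run. H1FX and DYRK1A did not pass under TMM, DESeq2, without either activated library or with a replicate block, and MIR142 did not pass under DESeq2 (adjusted p = 0.183) or with the block.

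Of the 20 tested genes listed in all libraries, 13 had more reads in both activated than in both non-activated libraries, and 1 had fewer. These counts are of reads not scaled to depth, and the activated libraries were deeper. The median log2 difference relative to depth was 0.41. Several genes had small differences, none of which passed. UBE2S encodes an E2 enzyme that works with the anaphase-promoting complex. It had 65 and 71 reads against 43 and 38, a log2 difference of 0.30 relative to depth (edgeR, adjusted p = 0.442). CFL1, which encodes the actin-severing protein cofilin, had 18 and 20 against 15 and 15 (log2 difference −0.11). VAPA, a membrane contact protein of the endoplasmic reticulum, had 29 and 22 against 20 and 16 (0.06). The sign of these small differences depends on the scaling. UBE2S and VAPA fell below 0 under TMM, and CFL1 rose above 0 with no scaling to depth.

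**Figure D4:**
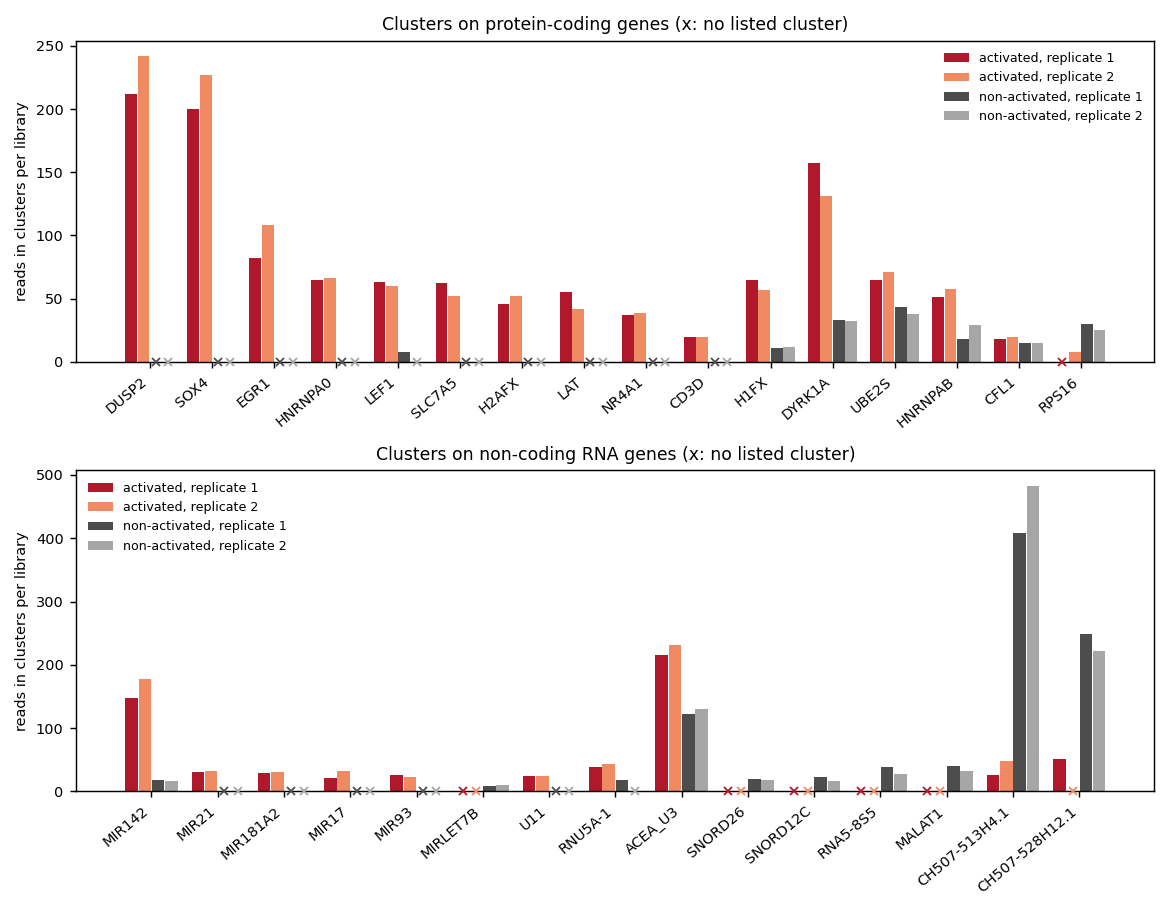
Reads in called clusters (vertical axis, from 0) of named genes in each of the 4 libraries, with protein-coding genes above and non-coding genes below. A cross marks a library in which the gene had no listed cluster. DUSP2 and SOX4 have 200 to 242 reads in activated cells and no cluster in non-activated cells, while CH507-513H4.1 has 26 and 48 reads against 409 and 483.

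Of the immediate early and activation-induced genes, none had a listed cluster in non-activated cells, beside 121 of all 384 genes that had one. Of the 9 listed, 7 were in both activated libraries, beside 152 of all 384 genes. Over all genes 100 of 384 (26%) were listed in both activated and no non-activated library. DUSP2 had 212 and 242 reads. EGR1, a zinc finger transcription factor, had 82 and 108 reads. NR4A1, an orphan nuclear receptor induced by receptor signalling, had 37 and 39, PIM3, a serine/threonine kinase, 35 and 34, and ZFP36L1, which binds AU-rich elements and promotes mRNA decay, 27 and 35. CD69, the early surface activation marker, was near the listing minimum with 7 and 10 reads. The 5 of these 9 genes with enough reads to be tested passed and were higher, beside 30 of all 97 genes tested (30.9%). None of the 5 was listed in non-activated cells, so the calls restate the listing.

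RNA levels are given as the authors' mean TPM, rescaled here so that the protein-coding TPM of both states sum to the same total, because protein-coding transcripts held only 1.53% of the activated profile and 9.24% of the non-activated one. The direction of most genes depends on this rescaling, so the deposited TPM is given beside it. DUSP2 stood at 1717 in activated cells, against 34.9 in non-activated cells (27.7 and 3.60 TPM), and EGR1 at 298, against 0.294 (4.56 and 0.0271 TPM). SOX4 had 200 and 227 reads in activated cells and no listed cluster in non-activated cells. Its RNA level was 213 against 115 rescaled, and 3.26 against 10.7 TPM as deposited. SOX4 and LEF1 are transcription factors of the T lineage and of its leukaemias. LEF1 had 63 and 60 reads, against 8 in the first non-activated library and no listed cluster in the other, with an RNA level of 185 against 131 rescaled (8.10 against 27.1 TPM). HNRNPA0, an hnRNP protein that binds AU-rich elements, had 65 and 66 reads and no listed cluster in non-activated cells, with an RNA level of 30.5 against 26.4 rescaled (0.467 against 2.44 TPM). H2AFX, the histone variant of the DNA damage response, had 46 and 52 reads, none listed in non-activated cells, and an RNA level of 63.6 against 120 rescaled (4.21 against 39.5 TPM). RNA levels have no replicate values here and were not tested.

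Over the 88 protein-coding genes listed in both activated libraries only and with an RNA level, 65.9% had the higher rescaled level in activated cells, against 66.4% of all 12689 protein-coding genes. Their median log2 ratio was 0.38, against 0.25 over all. Of the 18 genes listed in all 4 libraries with a level, 44.4% were higher.

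Genes of the T cell receptor complex and its proximal signalling were few. LAT, the adaptor that links the receptor to phospholipase C, had 55 and 42 reads in activated cells, and CD3D, a signalling chain of the receptor, 20 and 20. Neither was listed in non-activated cells, and both passed (edgeR, adjusted p = 0.0166 and 0.0251), so that the calls restate the listing. They were 2 of the 3 genes of this list tested, beside 30.9% of all genes tested that were higher. TRBC2, the beta chain constant gene, was listed only in the second activated library, with 28 reads. Of 14 T cell markers 4 had a cluster in the band, and of 14 markers of other cell types none had. The marker RNA itself was present, since 11 and 12 of the 14 T cell markers reached 1 TPM in activated and non-activated cells. Of the 14 markers of other cell types 1 and 3 did so. No gene of the calcineurin-NFAT and NF-kappaB list was listed.

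Histone mRNAs made up the largest group. Of the 26 core histone genes listed, 24 were listed in an activated and 12 in a non-activated library, beside 331 and 121 of all 384 genes. Of the 11 tested 1 passed, beside 36.1% of all genes tested. HIST1H3B had 21 and 26 reads and no listed cluster in non-activated cells (edgeR, adjusted p = 0.0199), so that its call restates the listing. HIST1H4A had 42 and 35 against 20 and 18, and HIST1H4H 19 and 23 against 21 and 19. HIST1H2AC had 124 and 94 reads, against 39 in the first non-activated library and no listed cluster in the second. Core histone genes are near-identical copies, and their reads could be split among copies. Of the 10 linker and replacement histone genes 3 were tested, H1FX, H2AFX and HIST1H1B. All 3 passed and were higher, beside 30.9% of all genes tested, and of these only H1FX was listed in non-activated cells.

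The other lists fell to both sides. Of 10 hnRNP and SR proteins, which package and splice pre-mRNA, 5 were tested. HNRNPA0 and HNRNPA2B1 (67 and 53 reads), 2 of these 5, passed and were higher, beside 30.9% of all genes tested. Neither was listed in non-activated cells, so that the calls restate the listing. NONO had 13 and 10 reads in non-activated cells only. Among 6 chaperones HSPA5 of the endoplasmic reticulum had 15 and 20 reads in activated cells only, and cytosolic HSPA8 had 14 and 13 in non-activated cells only. Of 7 cytosolic ribosomal protein genes 2 were tested and neither passed. RPS16 had no listed cluster and 8 reads in the activated libraries, against 30 and 25 (edgeR, adjusted p = 0.319). Its RNA level was 395 against 309 rescaled, and 6.26 against 29.4 TPM as deposited. TUBA1B, an alpha tubulin, had 17 and 12 reads in non-activated cells only. EIF3A was the only eIF3 subunit listed, with 7 reads in the first non-activated library.

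Of 30 miRNA loci, 20 and 17 were listed in the activated libraries and 3 and 3 in the non-activated libraries, with 453 and 462 reads against 42 and 39. In any activated library 27 were listed and in any non-activated library 4, beside 331 and 121 of all 384 genes. MIR21 had 31 and 32 reads, MIR181A2 29 and 31, MIR17 21 and 32 and MIR93 26 and 23 in the activated libraries, and none of them was listed in non-activated cells. These 4 loci and MIR142, 5 of the 7 miRNA loci tested, passed and were higher (edgeR, adjusted p from 0.0166 to 0.0236), beside 30.9% of all genes tested. For all but MIR142 the call restates the listing. MIRLET7B went the other way, with 9 and 11 reads in non-activated cells only. Loci that share the seed AAAGUGC of hsa-miR-17-5p (MIR17, MIR20B and MIR93) summed to 47 and 72 reads in activated cells and none listed in non-activated cells. The 4 MIR181 loci with the seed ACAUUCA summed to 70 and 47, also with none listed in non-activated cells. The 6 let-7 loci with the seed GAGGUAG summed to 19 and 61, against 24 and 11, and so overlapped. Loci of 1 family share sequence, so reads can be divided among them.

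Most snoRNA genes were listed in non-activated cells only. Of 12 listed genes, 11 and 10 were listed in non-activated and 4 and 3 in activated libraries. In any non-activated library 12 were listed and in any activated library 4, beside 121 and 331 of all 384 genes. SNORD26 had 20 and 18 reads and SNORD12C 23 and 17 in non-activated cells, and neither was listed in activated cells (edgeR, adjusted p = 0.0166 each). They were 2 of the 5 snoRNA genes tested, beside 5.15% of all genes tested that were lower, and both calls restate the listing. SNORD30, SNORD35A and SNORD14C were likewise listed in both non-activated libraries only, with 7 to 13 reads. Of the 3 snoRNA genes listed in all 4 libraries, SNORD14E had 12 and 8 reads against 19 and 12, and SNORD3D, a U3 copy, had 14 and 28 against 22 and 7, which overlap. ACEA_U3, also of the U3 family that is needed to cleave pre-rRNA, had 215 and 231 reads against 123 and 130. That log2 difference of 0.37 relative to depth did not pass (edgeR, adjusted p = 0.225) and turned below 0 under TMM and DESeq2. Its median T-to-C fraction was 0.83 and 0.81 in activated cells, against 0.52 and 0.72.

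Among snRNA genes, U11 of the minor spliceosome had 25 and 24 reads in activated cells only and passed (edgeR, adjusted p = 0.0166), a call that restates the listing. RNU4-1, which encodes U4, had 20 and 26 reads against 27 and 16 and did not pass. RNU5A-1, which encodes U5, had 38 and 44, against 18 in the first non-activated library and no listed cluster in the second.

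The gene with most cluster reads in non-activated cells was a lincRNA locus that spans ribosomal DNA. CH507-513H4.1, annotated as a lincRNA, had 26 and 48 reads at 1 and 2 sites in activated cells, against 409 and 483 reads at 15 and 13 sites in non-activated cells. This was a log2 difference of −4.04 (edgeR, adjusted p = 0.0166). It was lower in activated cells under every alternative run, but did not pass without either activated library (adjusted p = 0.140 and 0.145) or with a replicate block. Its clusters were annotated as lincRNA intron. The transcript lies at chr21:8197620-8227646 (hg38, plus strand), and by RefSeq the 45S pre-rRNA gene RNA45SN2 (chr21:8205988-8219302), with the 18S, 5.8S and 28S genes inside it, falls within that span and overlaps none of its exons. CH507-528H12.1 lies at chr21:8380643-8410645 and spans RNA45SN3 in the same way. It had 52 reads and no listed cluster in the activated libraries, against 248 and 222, and did not pass (edgeR, adjusted p = 0.372). The deposited counts carry no cluster positions, so that reads of the rRNA genes and of other sequence in these spans cannot be told apart. These loci are near-identical copies, and how reads were divided between them is uncertain. Together they held 1.45% and 0.907% of all cluster reads in activated cells, against 31.7% and 38.6% in non-activated cells.

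RNA5-8S5, a 5.8S rRNA gene, had 38 and 27 reads in non-activated cells and no listed cluster in activated cells, and MALAT1, a nuclear lincRNA, 40 and 32 in the same libraries. Both passed (edgeR, adjusted p = 0.0166 each), and both calls restate the listing.

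The median T-to-C fraction per gene moved less than the fraction per class. Over the listed genes its median was 0.86 and 0.88 in activated cells and 0.82 and 0.845 in non-activated cells. In the 24 genes listed in all libraries it was lower in activated cells for 17 and higher for 7, with a median difference of −0.04 and a range from −0.27 (CTDNEP1) to 0.25 (PRDX1). For MIR142 it was 0.66 and 0.70, against 0.83 and 0.81, the opposite of the miRNA class. Clusters are called on conversions, so this fraction is bounded from below by the listing.

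The EIF3F/E band, which shares the subunit names EIF3E and EIF3F and had similar depth, was the band compared. Both bands of a state and replicate came from the same sample, so that the 8 libraries stand for 4 samples. A model with both bands and both states tested 32 classes, of which 17 (53.1%) had a state difference that differed between the bands. The 3′-UTR rise was 0.87 ± 0.04 in the EIF3G/E/F band and 0.31 ± 0.02 in the EIF3F/E band, a difference of 0.57 ± 0.03 in log2 (SE, edgeR interaction, adjusted p = 1.15e-05). The 5′-UTR rise was 0.74 and 0.21, a difference of 0.53 ± 0.03 (edgeR interaction, adjusted p = 1.15e-05). miRNA rose in the EIF3G/E/F band, while the EIF3F/E value was −0.20 ± 0.08, a difference of 0.71 ± 0.10 (edgeR interaction, adjusted p = 0.00123). The snoRNA fall of 1.00 compared with 0.33 in the EIF3F/E band (difference −0.67 ± 0.11, edgeR interaction, adjusted p = 0.00176). For introns the EIF3F/E value was 0.08 ± 0.02, a difference of −0.50 ± 0.05 (edgeR interaction, adjusted p = 0.000173). The rRNA values, −1.79 and −1.87, did not differ past the threshold (difference 0.08 ± 0.13, edgeR interaction, adjusted p = 0.701). With the sample entered as a block the same 17 classes passed. With the non-activated pair of each band counted as 1 sample, 9 of the 17 classes passed, among them the 5′-UTR, 3′-UTR, intron, miRNA and snoRNA classes.

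**Figure D5:**
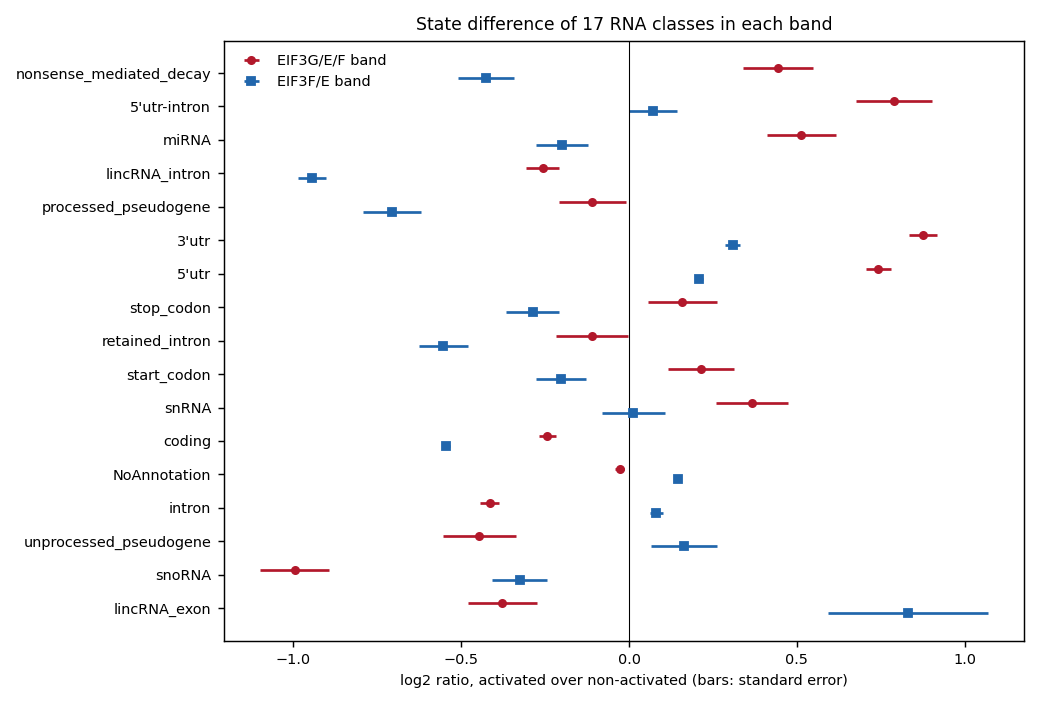
Log2 ratio of reads in activated over non-activated cells for the 17 RNA classes whose state difference differed between bands, with standard errors, for the EIF3G/E/F band (circles) and the EIF3F/E band (squares). miRNA lies at 0.51 and −0.20, and the 3′-UTR class at 0.87 and 0.31.

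In the EIF3F/E band MIR142 had 88 and 66 reads in activated cells, against 69 and 70 without activation, beside 148 and 177 against 18 and 16 in the EIF3G/E/F band. In the other bands it had 2112 and 2048 against 52 and 59 (EIF3A/C/B), 2200 and 2195 against 132 and 295 (EIF3B/C), and 194 and 210 against 23 and 20 (EIF3D/L), at depths that differ between states. SOX4 had 90 and 60 reads in the EIF3F/E band, against 22 in the first non-activated library and no listed cluster in the second. CH507-513H4.1 had no listed cluster in the activated EIF3F/E libraries, against 143 and 139 reads. Differences between bands were not tested for single genes.

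Few genes belonged to the EIF3G/E/F band alone. Of the 152 genes listed in both activated libraries, 75 were also listed in both activated EIF3F/E libraries, 49.3% of the first list and 50.3% of the second. In non-activated cells 34 genes were shared, 70.8% of the 48 EIF3G/E/F genes and 31.2% of the 109 EIF3F/E genes. The deeper activated EIF3A/C/B libraries held 147 of the 152 genes. Of the 384 genes 14 were listed in no other band, and 3 of these were in both libraries of a state: SEC14L1 in activated cells (9 and 7 reads), SNORD12C in non-activated cells, and SNORD33, with 22 and 24 reads in non-activated cells and 13 in the first activated library.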

How the data were processed

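Reads sharing a random adapter barcode were merged by the authors before alignment (Bowtie, hg38). Clusters came from PARalyzer within PARpipe, which required 5 reads in a group, 7 in a cluster and 2 conversion positions. The deposited counts are whole reads and sites per gene in clusters and whole uniquely aligned reads per RNA class, and the deposited T-to-C fraction is the share of reads with a conversion. RNA levels are deposited kallisto TPM, averaged by the authors over replicates, with depth unknown. Per the labels, which the depositors corrected for replicate 2, libraries were grouped by state.

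Genes and RNA classes with at least 20 reads in any library were tested with edgeR 4.0.16 (quasi-likelihood test, library sizes the uniquely aligned reads, Benjamini-Hochberg adjustment, threshold 0.05), and T-to-C fractions per class with limma 3.58.1, in R 4.3.3. Genes that were not listed entered as 0, and fold changes are given only for genes listed in all 4 libraries. Alternatives included DESeq2 1.42.0. Each model was tested on simulated data with known changes. Other values came from Python 3.11.15. The members and gene lists were chosen with earlier results of these data known. Named genes were those with most reads, the largest called changes, the genes listed in all 4 libraries and listed members of the gene lists.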

Additional observations from a re-analysis of the deposited data

Results flagged for a closer look

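For 17 RNA classes the difference between activated and non-activated cells in the EIF3G/E/F band differed from that in the EIF3F/E band, by the interaction term of an edgeR model over 8 libraries from 4 samples, each of which gave both bands. With the sample as a block, added after seeing the data, the same 17 passed. The values below are the EIF3G/E/F minus the EIF3F/E log2 ratio. It was above 0 for the mRNA regions: 0.53 for 5′-UTRs, 0.57 for 3′-UTRs, 0.30 for coding sequence, 0.45 for stop codons, 0.42 for start codons and 0.72 for reads across 5′-UTR and intron. It was also above 0 for miRNA (0.71), lincRNA introns (0.69), processed pseudogenes (0.60), nonsense-mediated decay transcripts (0.87), retained introns (0.44) and snRNA (0.35). It was below 0 for reads without annotation (−0.17), introns (−0.50), snoRNA (−0.67), unprocessed pseudogenes (−0.61) and lincRNA exons (−1.21). The share of reads without annotation also differed between bands, at 40.5% in activated and 41.3% in non-activated cells of the EIF3G/E/F band, and 47.8% and 43.2% in the EIF3F/E band. With annotated reads as library sizes 15 classes passed, all among the 17.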

How the results depend on the processing

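The number of genes called was 35 and moved to 79 with no filter on low counts, 7 among genes listed in all 4 libraries only (an alternative chosen after seeing the data), 0 with a replicate block, and 2 to 42 when a library was left out. By the unadjusted p 6 genes were under 0.05 with the block. Whether the replicate numbers pair the samples is not known. Deviations of same-numbered libraries correlated at 0.02 over 30 RNA classes. This cannot decide it, because the non-activated pair differed by less than the sampling noise. The block left 19 RNA classes, 17 class differences between bands and 3 T-to-C classes (11 without it). RNA class calls ran from 14 to 23 and class differences between bands from 15 to 20 when a library was left out. T-to-C calls ran from 1 to 9 when a library was left out. With the non-activated pair counted as 1, chosen after seeing the data, there were 9 class differences between bands and 1 T-to-C class. Among RNA classes the direction turned for coding sequence (0.064 under TMM, 0.20 with no scaling to depth), lincRNA introns (0.049 and 0.189), introns (0.031 with no scaling) and lincRNA exons (0.066 with no scaling). The ratio of genes with a cluster was 2.86. It was 4.39 for genes with at least 20 reads, 2.10 after division by the ratio of aligned reads, 1.74 after division by that of mRNA reads, and 2.60 to 3.18 when a library was left out. As a share of mRNA sites the difference between states (activated minus non-activated) was −5.82 points for 5′-UTR sites and −0.22 for coding exons, against 16.7 and 7.98 of all sites. For 3′-UTR sites it was 10.5 of all sites, 13.2 of mRNA sites and 11.3 without core histone genes. For sites counted under no region it was −33.2, and −36.2 without core histone genes. The cause of these shifts was not tested, except that fewer genes were tested in the smaller sets. Depth limits the genes, since 287 of 384 had under 20 reads in every library, and reads in clusters of under 7 reads are not counted.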
